A study of Mus musculus with 6 samples.

Results

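The small leucine-rich proteoglycans are a family of secreted extracellular matrix proteins. Of 8 listed genes of the family, namely Ogn, Dcn, Lum, Bgn, Fmod, Aspn, Prelp and Omd, 7 were found by matching the Ensembl IDs to their symbols, among 24938 genes listed per library. Lum was not analysed here. RNA was sequenced from NIH3T3, an immortal line of mouse embryo fibroblasts, in 6 libraries. In 3 of them the cells overexpressed F-CircAE, the name given to a fusion circular RNA connected with AML1-ETO, which joins RUNX1 to RUNX1T1 in leukaemia. The other 3 were labelled wild type. The labels name no vector control, means of expression or clone, so the procedure and the circular RNA cannot be told apart. They also leave unsaid whether replicates were grown apart, and the p-values then cover the spread of these 6 libraries alone, possibly a technical spread. In bulk RNA, fewer cells expressing a gene and less of its RNA per cell cannot be told apart.

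Each protein of this family has a core of leucine-rich repeats between clusters of cysteines, and most carry glycosaminoglycan chains. They bind fibrillar collagens and set how collagen fibrils assemble, and several bind growth factors or cell surface receptors. Decorin (Dcn), biglycan (Bgn) and asporin (Aspn) form class I, lumican (Lum), fibromodulin (Fmod), Prelp and osteomodulin (Omd) class II, and osteoglycin (Ogn) belongs to class III. Dcn and Bgn carry chondroitin or dermatan sulfate, whereas several members of the other classes can carry keratan sulfate. Fibroblasts are a main source of several of them in connective tissue.

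Reads recovered from FPKM values, which count fragments per gene length and library size, summed to between 16969915 and 21843880 per library. These sums were 1.001 to 1.0152 times the library size implied by the values with F-CircAE. In wild type they were 0.9763 to 0.9924 times that size. Wild type replicates 1 and 2 differed by little more than counting error, with a mean chi-square per gene of 1.46 where counting error alone gives about 1, against 5.15 to 25.1 in the other 14 pairs of libraries. For each of the 5 proteoglycan genes above 1 FPKM the chi-square between wild type replicates 1 and 2 was between 0.00565 and 1.38. Whether they share an RNA or a culture is not given, and if they do, the wild type errors at n = 3 are too small. All 10 fibroblast markers had reads in every library, with a summed level of 2370 to 2910 FPKM in F-CircAE libraries and 2640 to 3180 FPKM in wild type libraries. Of these markers, Col1a1 stood between 444.2 and 574.7 FPKM with F-CircAE and between 491.93 and 606.56 FPKM in wild type. Thy1 and S100a4 were low, at 0.873 to 3.61 and 2.08 to 3.58 FPKM over all libraries. The epithelial marker Krt14 was at 2.37 to 6.06 FPKM and the haematopoietic marker Cd68 at 4.32 to 6.34 FPKM. The tendon marker Mkx was at 5.39 to 5.99 FPKM, the epithelial marker Cdh1 at 2.19 to 2.82 FPKM and the muscle marker Des at 1.84 to 2.33 FPKM. The remaining fibroblast markers were at 6.91 FPKM or more in every library. Markers of other cell types were low in sum, apart from the chondrocyte list, which was almost entirely Sox9 at 28.78 to 29.69 FPKM with F-CircAE and 27.57 to 33.98 FPKM in wild type. The cartilage genes Acan and Col2a1 were at most 0.0395 and 0.157 FPKM in any library. The mouse genes of the fusion partners had 5.25 ± 0.424 FPKM with F-CircAE and 5.29 ± 0.722 FPKM in wild type for Runx1, and 1.66 ± 0.207 FPKM with F-CircAE and 1.67 ± 0.208 FPKM in wild type for Runx1t1 (SD, n = 3). F-CircAE was not analysed here.

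None of the proteoglycan genes differed between F-CircAE and wild type cells at an adjusted p below 0.05, and no gene of the 12222 tested did (0% called, limma with Benjamini-Hochberg adjustment, smallest adjusted p = 0.26). The 5 genes above the expression filter, Bgn, Dcn, Prelp, Ogn and Omd, had lower means with F-CircAE, with a median log2 fold change of -0.55 beside 0.008 over all tested genes. Estimates below 0 were found at 46.8% of tested genes. At an unadjusted p below 0.05 stood 3 of the 5 (Ogn, Prelp and Dcn), where 2.31% of tested genes were lower with F-CircAE at that level and 2.86% higher, 5.17% in either direction. The genes were chosen with earlier results of these data known, so neither their median nor such counts are a test of the family. With limma-voom on the recovered reads 2 of the 5, Ogn and Prelp, stood at an unadjusted p below 0.05, as did 5.22% of 14473 genes. Only Ogn among the 5 had all F-CircAE libraries below all wild type libraries, which was so for 4.69% of tested genes. All 5 passed the filter in each of the 6 libraries, so none owed its test to a single group. In wild type replicate 3 all 7 genes lay below both other wild type libraries, as did 33.3% of listed genes and 41.2% of tested genes. That library lay within the range of the F-CircAE libraries for 5 of the 7.

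**Figure D1:**
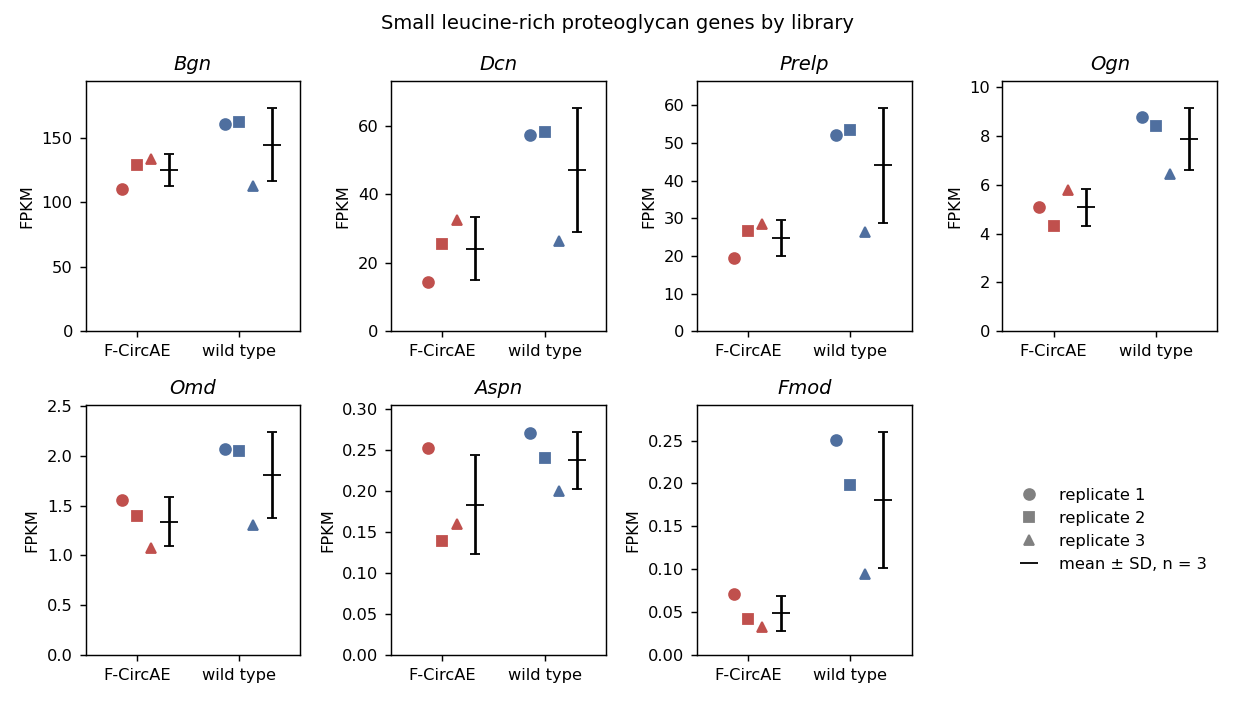
FPKM of the 7 genes in each library, F-CircAE left and wild type right, with marker shape for the replicate and black bars for the mean ± SD (n = 3). Wild type replicates 1 and 2 lie together at the top for Bgn, Dcn and Prelp, at 161.14 and 162.49 FPKM for Bgn, while wild type replicate 3 lies among the F-CircAE libraries at 112.55 FPKM.

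Levels per gene length spanned a wide range, and the order Bgn above Dcn and Prelp, then Ogn, Omd, Aspn and Fmod held in every library. The sum over the 7 genes was 151, 187 and 202 FPKM in F-CircAE replicates 1, 2 and 3, against 282, 285 and 173 FPKM in wild type replicates 1, 2 and 3. It made up 0.0401% to 0.0541% of all FPKM with F-CircAE and 0.0468% to 0.0797% in wild type. Bgn alone took 66.4% to 73.0% of that sum with F-CircAE and 57.0% to 64.9% in wild type. The groups did not overlap in this share, by a narrow gap to wild type replicate 3 at 64.9%. A share also moves with the other genes of the sum, and the FPKM of Bgn itself overlapped between groups. How often such a share keeps the groups apart was not tested. Dcn and Prelp were close neighbours in the order: the ratio of Prelp to Dcn was 1.36, 1.05 and 0.871 with F-CircAE and 0.911, 0.92 and 1.0 in wild type, so they changed places between libraries. All other neighbours in the order kept their places in each of the 6 libraries, Aspn and Fmod most narrowly in wild type replicate 1, at 0.271 and 0.251 FPKM.

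Promoter windows were available in RefSeq (GRCm38.p6) for 6 of the 7 genes, all but Dcn, and cover 250 bases before to 50 bases after the annotated start. The windows of 4 genes of different levels are given: Ogn and its neighbour Omd, Prelp as the gene with a pattern close to Dcn, and Bgn as the most abundant. Whether these genes differ from each other in their difference between groups was not tested. They lie at chr13:49607765-49608064 (Ogn, plus strand), chr13:49582212-49582511 (Omd, plus strand), chr1:133921352-133921651 (Prelp, minus strand) and chrX:73483351-73483650 (Bgn, plus strand). Capitals mark matches to any of 5 motifs searched on both strands, which were the letters TATAAA, besides these the letters CCAAT, further the letters GGGCGG, also the letters TGANTCA, and finally the CArG box.
Ogn: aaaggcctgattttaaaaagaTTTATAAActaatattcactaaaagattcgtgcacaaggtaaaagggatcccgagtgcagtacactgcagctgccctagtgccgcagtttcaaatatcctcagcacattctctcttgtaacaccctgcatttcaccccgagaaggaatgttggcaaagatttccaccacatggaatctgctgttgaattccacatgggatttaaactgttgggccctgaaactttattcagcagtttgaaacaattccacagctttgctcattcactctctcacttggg
Omd: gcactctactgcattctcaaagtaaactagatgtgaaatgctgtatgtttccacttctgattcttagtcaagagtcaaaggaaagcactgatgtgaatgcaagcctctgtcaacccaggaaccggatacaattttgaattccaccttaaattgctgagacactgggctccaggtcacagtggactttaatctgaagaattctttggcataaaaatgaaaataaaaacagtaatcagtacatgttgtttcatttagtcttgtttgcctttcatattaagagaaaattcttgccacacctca
Prelp: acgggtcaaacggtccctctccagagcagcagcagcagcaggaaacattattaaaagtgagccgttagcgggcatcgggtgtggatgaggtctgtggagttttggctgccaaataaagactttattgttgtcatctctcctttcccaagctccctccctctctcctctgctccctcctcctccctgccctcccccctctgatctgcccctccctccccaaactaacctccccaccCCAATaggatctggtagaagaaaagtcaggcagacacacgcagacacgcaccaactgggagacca
Bgn: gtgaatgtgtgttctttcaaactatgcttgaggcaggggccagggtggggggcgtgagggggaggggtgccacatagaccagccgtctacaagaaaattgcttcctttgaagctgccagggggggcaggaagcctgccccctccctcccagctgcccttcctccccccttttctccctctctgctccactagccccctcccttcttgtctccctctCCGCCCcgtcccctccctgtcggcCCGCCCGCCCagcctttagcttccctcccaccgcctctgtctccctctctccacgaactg

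Ogn holds 2 overlapping matches to TATAAA, one on each strand, that begin 229 and 227 bases before the start. This motif occurs in 13.6% of 32851 promoter windows of the same length. Bgn holds 3 matches to GGGCGG on the opposite strand within the last 34 bases before the start, 2 of which overlap, and 35.7% of windows hold that motif. Prelp holds CCAAT 15 bases before the start, as 37.4% of windows hold it at some position, and Omd matches none of the 5. TGANTCA (7.81% of windows) and the CArG box (1.63%) were matched in none of the 6 genes. GC content was 63.7% for Bgn, 55.3% for Prelp, 42.3% for Ogn and 37.7% for Omd, beside a median of 52.7% over all windows, and 51.0% for Fmod and 31.0% for Aspn. A match is a description of the window and not a binding site.

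Of the class I genes, Bgn was the most abundant. Biglycan binds collagen and, when released from the matrix, can act on Toll-like receptors. Its gene lies on chromosome X from 73483602 to 73495933 (mm10, plus strand, ENSMUSG00000031375). F-CircAE replicates 1, 2 and 3 held 110.46, 129.28 and 134.02 FPKM, against 161.14, 162.49 and 112.55 FPKM in wild type replicates 1, 2 and 3. The groups overlapped, since wild type replicate 3 lay below 2 of the F-CircAE libraries. The means were 125 ± 12.5 FPKM with F-CircAE and 145 ± 28.5 FPKM in wild type (SD, n = 3). On the log2(FPKM + 1) scale the difference was -0.21 (95% interval -0.57 to 0.16, limma adjusted p = 0.846).

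On the log2(FPKM + 1) scale Dcn had the widest range over the 6 libraries among the 7 genes, at 1.95. Decorin coats collagen fibrils and can sequester TGF-beta and bind the EGF and HGF receptors. It lies on chromosome 10 from 97479609 to 97518143 (plus strand, ENSMUSG00000019929). F-CircAE libraries held 14.34, 25.51 and 32.55 FPKM, from 506, 1144 and 1267 reads. Wild type libraries held 57.22, 58.15 and 26.36 FPKM, from 2440, 2588 and 1052 reads. Wild type replicate 3 lay between F-CircAE replicates 2 and 3, and F-CircAE replicate 1 was the lowest library. The means of 24.1 ± 9.18 FPKM with F-CircAE and 47.2 ± 18.1 FPKM in wild type (SD, n = 3) gave a ratio of 0.511. On the log2(FPKM + 1) scale the difference was -0.93 with a standard error of 0.39 and a 95% interval of -1.85 to -0.01, and this missed the threshold (limma adjusted p = 0.842).

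Aspn, whose protein binds collagen but lacks the glycosaminoglycan attachment of decorin and biglycan, was barely present. It lies on chromosome 13 from 49544443 to 49567565 (plus strand, ENSMUSG00000021388). Reads numbered 10, 7 and 7 with F-CircAE and 13, 12 and 9 in wild type, which is 0.139 to 0.252 FPKM with F-CircAE and 0.2 to 0.271 FPKM in wild type. Summed over a group, 24 reads with F-CircAE (exact Poisson 95% interval 15.4 to 35.7) stood beside 34 in wild type (23.5 to 47.5). The ratio scaled to library size was 0.753, with an exact binomial 95% interval of 0.427 to 1.31, so a difference was not detectable at this depth. Such intervals cover counting error only.

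Among the class II genes, Prelp followed the pattern of Dcn. Prelp is a proline- and arginine-rich protein that links basement membranes to collagen through a heparin-binding end. Its gene lies on chromosome 1 from 133910304 to 133921414 (minus strand, ENSMUSG00000041577). F-CircAE libraries held 19.47, 26.69 and 28.36 FPKM, against 52.13, 53.52 and 26.42 FPKM in wild type libraries. Wild type replicate 3 again lay within the F-CircAE range, and wild type replicates 1 and 2 stood far above it. The means were 24.8 ± 4.73 FPKM with F-CircAE and 44.0 ± 15.3 FPKM in wild type (SD, n = 3). The difference on the log2 scale was -0.75 ± 0.28 (SE), with 95% bounds at -1.43 and -0.08 (limma adjusted p = 0.842). Exons of Prelp and the antisense gene Gm15851 share 350 bases, so without strand part of the reads of Prelp cannot be assigned with certainty. Gm15851 was at 0, 0.211 and 0.162 FPKM with F-CircAE and 0, 0.849 and 0.0789 FPKM in wild type.

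Omd encodes osteomodulin, a keratan sulfate proteoglycan of mineralised matrix. It lies on chromosome 13 from 49582462 to 49592822 (plus strand, ENSMUSG00000048368). F-CircAE libraries held 1.56, 1.40 and 1.07 FPKM (41, 47 and 31 reads), against 2.07, 2.05 and 1.31 FPKM in wild type (66, 68 and 39 reads). The groups overlapped through wild type replicate 3, and here F-CircAE replicate 1 was the highest of its group, unlike for Bgn, Dcn and Prelp, where it was the lowest. The log2 difference was -0.26, with 95% bounds at -0.61 and 0.10 (limma adjusted p = 0.843).

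Fmod encodes fibromodulin, which binds collagen and affects fibril thickness in tendon. It lies on chromosome 1 from 134037254 to 134048277 (plus strand, ENSMUSG00000041559). Reads numbered 4, 3 and 2 with F-CircAE and 17, 14 and 6 in wild type, or 0.0324 to 0.0714 FPKM with F-CircAE and 0.0948 to 0.251 FPKM in wild type. All F-CircAE libraries lay below all wild type libraries, as in 5.05% of listed genes. Over a group, 9 reads with F-CircAE stood beside 37 in wild type, a scaled ratio of 0.26 with an exact binomial 95% interval of 0.11 to 0.548 that covers counting error only. Fmod was under the expression filter and so was not in the main test. With no filter its log2 difference was -0.17 ± 0.06 (SE, limma adjusted p = 0.884), on a scale that understates changes of such low genes.

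Ogn, the class III gene, had all F-CircAE libraries below all wild type libraries, as did 4.69% of tested genes. Osteoglycin, also called mimecan, is a small keratan sulfate proteoglycan of bone, cornea and vessel walls. Its gene lies on chromosome 13 from 49608046 to 49624501 (plus strand, ENSMUSG00000021390). F-CircAE libraries held 5.09, 4.32 and 5.80 FPKM, from 219, 236 and 275 reads. Wild type libraries held 8.79, 8.42 and 6.44 FPKM, from 457, 457 and 313 reads. The highest F-CircAE library (replicate 3) lay below the lowest wild type library (replicate 3), with a narrow gap between them. The chi-square of Ogn between these libraries was 1.6, so this gap was little more than counting error. The means were 5.07 ± 0.74 FPKM with F-CircAE and 7.88 ± 1.27 FPKM in wild type (SD, n = 3), a ratio of 0.643. The log2 fold change of -0.55 had a standard error of 0.13 and a 95% interval of -0.86 to -0.23. Ogn ranked 51 of 12222 tested genes by p and missed the threshold (limma adjusted p = 0.842).

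**Figure D2:**
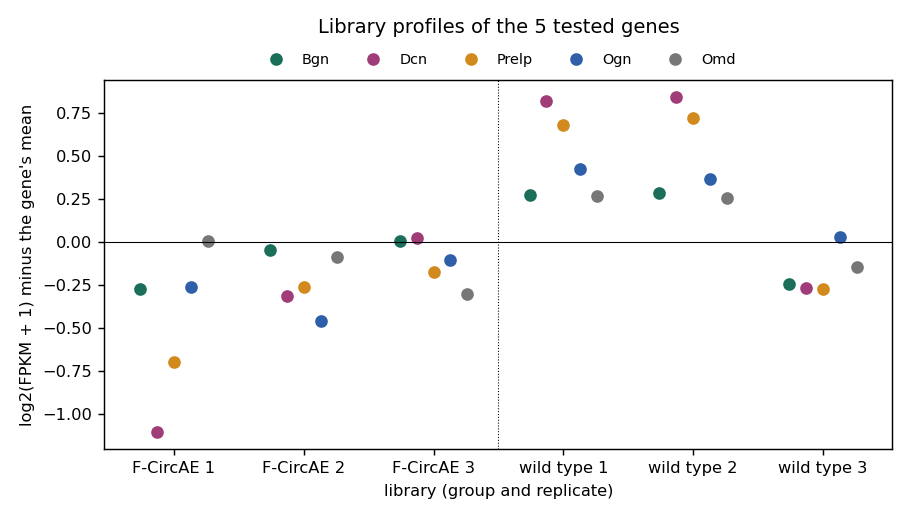
Log2(FPKM + 1) of the 5 tested genes in each library, minus each gene's mean over the 6 libraries, with F-CircAE libraries left of the dotted line and wild type right. Dcn ranges most widely, over 1.95 on this scale, and wild type replicate 3 lies below wild type replicates 1 and 2 for each of the 5.

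The distance of wild type replicate 3 from the other wild type libraries differed from gene to gene. On the log2(FPKM + 1) scale this library minus the mean of wild type replicates 1 and 2 was -1.1 for Dcn, -0.97 for Prelp, -0.52 for Bgn, -0.41 for Omd and -0.37 for Ogn. Over all tested genes the median of that gap was 0.005. A lower value was found at 0.442% of tested genes for Dcn and 0.605% for Prelp, and at 3.03% to 6.34% for the other 3. Set against wild type replicate 3 alone, the mean of the F-CircAE libraries differed by -0.20 for Dcn, -0.10 for Prelp, 0.14 for Bgn, 0.01 for Omd and -0.30 for Ogn. The ratio of Dcn to Bgn within a library was 0.13, 0.197 and 0.243 with F-CircAE and 0.355, 0.358 and 0.234 in wild type. Of the 10 fibroblast markers, 8 were lowest of the wild type libraries in replicate 3, with a median log2 fold change of -0.16 between groups. One of them, Fn1, which encodes fibronectin, stood at 242.61, 344.60 and 342.59 FPKM with F-CircAE and at 540.67, 537.38 and 319.07 FPKM in wild type. Vim and S100a4 did not follow this order. Vim, which encodes vimentin, stood at 566.54, 601.34 and 664.56 FPKM with F-CircAE and at 563.0, 560.34 and 606.42 FPKM in wild type, and S100a4 too was highest of the wild type libraries in replicate 3. Sparc, which encodes a matrix glycoprotein, was lowest of the wild type libraries in replicate 3. It differed by -0.01 between groups on the log2 scale (limma adjusted p = 0.991). The part of these markers in the results was not tested.

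The size of each difference depended on single libraries. Without wild type replicate 3 the log2 fold changes were -1.30 for Dcn, -1.08 for Prelp, -0.67 for Ogn, -0.39 for Omd and -0.38 for Bgn. Each then stood at an unadjusted p below 0.05, where 6.62% of 12031 genes were lower at that level, and none passed (limma adjusted p from 0.151 to 0.272). Without F-CircAE replicate 1, Dcn stood at -0.61 and Bgn at -0.12. With wild type replicates 1 and 2 averaged to a single library, the estimate of Bgn was -0.12, while those of Dcn, Prelp and Ogn were -0.75, -0.59 and -0.49 (limma adjusted p = 1.0 for each). Weighting libraries by their estimated quality gave all 5 an adjusted p between 0.02 and 0.0325 (limma with array weights), along with 2241 of 12222 tested genes (18.3%), of which 890 were lower with F-CircAE (7.28%). Those weights were 0.2782, 4.638 and 0.5932 for F-CircAE replicates 1, 2 and 3 and 2.155, 2.571 and 0.2357 for wild type replicates 1, 2 and 3. F-CircAE replicate 2 alone thus carried most of the F-CircAE mean, and the near-identical wild type pair most of the wild type mean. With that pair averaged first, the weighted fit called none of them (limma adjusted p from 0.916 to 0.968).

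**Figure D3:**
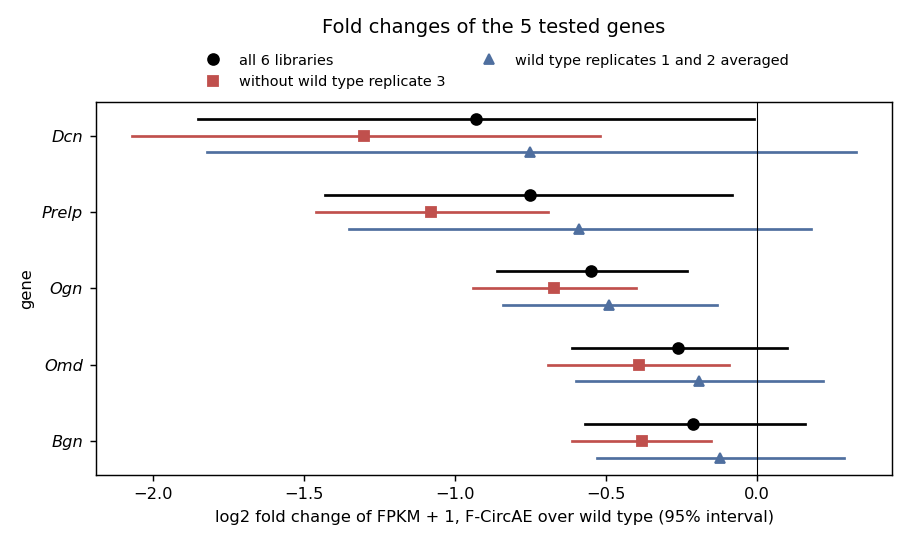
Log2 fold change of FPKM + 1, F-CircAE over wild type, with its 95% interval for the 5 tested genes, using all 6 libraries (black), without wild type replicate 3 (red) and with wild type replicates 1 and 2 averaged (blue). The interval of Ogn lies below 0 under each of the 3, and that of Dcn runs from -1.85 to -0.01 with all libraries and from -1.82 to 0.33 with the pair averaged.

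Several genes of this family lie next to each other in the mouse genome, and neighbours differed in level. On chromosome 13, Ecm2, Aspn, Omd and Ogn follow each other on the plus strand inside Cenpp, a centromere protein gene on the minus strand, with gaps of 11.7 kb, 14.9 kb and 15.2 kb. With F-CircAE the levels along this row were 0.181 to 0.208 FPKM for Ecm2, 0.139 to 0.252 for Aspn, 1.07 to 1.56 for Omd and 4.32 to 5.80 for Ogn. In wild type they were 0.13 to 0.261, 0.2 to 0.271, 1.31 to 2.07 and 6.44 to 8.79 FPKM. Cenpp stood at 17.48, 13.76 and 13.52 FPKM with F-CircAE and 13.76, 13.95 and 15.13 FPKM in wild type, a log2 fold change of 0.05 with a standard error of 0.10 (limma adjusted p = 0.927). Its exons share no base with those of Ogn or Omd and 7 bases with those of Aspn. Nol8, a nucleolar protein gene 28.6 kb beyond Ogn, differed by 0.03 on the log2 scale (limma adjusted p = 0.979).

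On chromosome 1, Prelp lies 2.3 kb from Optc (opticin) and 116 kb from Fmod. Prelp was at 19.47 FPKM or more in every library while Optc had 0, 1 and 0 reads with F-CircAE and 5, 2 and 0 reads in wild type. Beyond Fmod, the antiproliferative gene Btg2 differed by 0.04 on the log2 scale (limma adjusted p = 0.944). On chromosome 10, Dcn lies 47.0 kb from Lum on the same strand. On its other side the nearest protein-coding gene is Btg1 at 857 kb, which stood at 37.1, 40.12 and 38.8 FPKM with F-CircAE and 47.56, 47.75 and 34.67 FPKM in wild type (log2 fold change -0.15, limma adjusted p = 0.85). Bgn on chromosome X lies between Haus7, which differed by 0.11 on the log2 scale (limma adjusted p = 0.843), and Atp2b3, which was at most 0.0325 FPKM.

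Among other members of the family, taken from a list of 9, Tsku and Podnl1 passed the filter. Tsku encodes tsukushi, a secreted modulator of developmental signals, and Podnl1 encodes a podocan-like protein. Tsku was at 11.27, 11.25 and 11.60 FPKM with F-CircAE and 11.12, 11.07 and 11.39 FPKM in wild type. It was level across the libraries, wild type replicate 3 included, with a log2 fold change of 0.02 and a 95% interval of -0.10 to 0.14 (limma adjusted p = 0.943). Podnl1 was at 8.07, 5.71 and 7.62 FPKM with F-CircAE and 6.79, 6.24 and 6.72 FPKM in wild type, a log2 difference of 0.09 (limma adjusted p = 0.885).

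The profiles of some genes lay close to those of the proteoglycans. Likeness was the root mean square difference between centred log2(FPKM + 1) profiles over the 6 libraries, among about 8067 genes with a mean of at least 5 FPKM. Closest to Dcn were Ces1d (0.166), Islr (0.184) and Col3a1 (0.195). Closest to Prelp were Spon2, which encodes a secreted matrix protein (0.113), Fn1 (0.123) and Islr (0.137). For Bgn they were Tapbp and Tap2, both of antigen peptide loading, and Sema4c, at 0.026 to 0.034, for Omd Dusp1, 1700109K24Rik and Adamts1 at 0.055 to 0.064, and for Ogn Gm22573, Snora47 and Cfap69 at 0.086 to 0.133. Within the family Prelp ranked 5 of 12221 tested genes by likeness to Dcn, and Dcn ranked 18 by likeness to Prelp. Omd ranked 1266 by likeness to Dcn. With 6 libraries, of which a pair is nearly identical, these distances are a description only.

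Of 13 collagen genes whose proteins these proteoglycans bind, 10 were tested and none passed. Estimates were below 0 for 8 and above 0 for 2, with a median log2 fold change of -0.13 beside 0.008 over all tested genes. Col1a1, a chain of type I collagen, had 515 ± 65.9 FPKM with F-CircAE and 567 ± 65.0 FPKM in wild type (SD, n = 3), and differed by -0.14 on the log2 scale (95% interval -0.43 to 0.15, limma adjusted p = 0.85). Col1a2, the other chain, had a log2 fold change of -0.16 and Col6a1, of type VI collagen, -0.11 (limma adjusted p = 0.85 and 0.891). Col5a1, of type V collagen, was the 1 of the 10 with groups apart, at 71.62, 70.99 and 72.78 FPKM with F-CircAE and 85.64, 85.19 and 74.57 FPKM in wild type, where 4.69% of tested genes were apart in that direction, and it was named after its values were seen. Col3a1, of type III collagen, had the lowest estimate at -0.62, with 48.83, 94.64 and 108.05 FPKM with F-CircAE and 148.12, 145.87 and 85.58 FPKM in wild type. In wild type replicate 3 all 10 tested collagens lay below both other wild type libraries, against 41.2% of tested genes.

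Of 11 proteases that process or cleave these proteins, 7 were tested and none passed. All 7 estimates were below 0, with a median of -0.23. All 7 were lowest of the wild type libraries in replicate 3, against 41.2% of tested genes. In other lists that held for 10 of 12 tested chondroitin and dermatan sulfate enzymes, 8 of 10 receptors and ligands and 4 of 6 linker enzymes. It also held for 2 of 2 keratan sulfate enzymes, 3 of 6 sulfate supply genes and 0 of 2 other proteoglycans. Mmp2, a gelatinase, had 157 ± 17.7 FPKM with F-CircAE and 187 ± 45.7 FPKM in wild type, and Mmp14, the membrane protease that activates it, had 52.2 ± 6.95 FPKM with F-CircAE and 57.6 ± 16.4 FPKM in wild type (SD, n = 3). Pcolce, which enhances procollagen C-proteinase, was the only one of the 7 whose groups did not overlap, at 103.81, 109.72 and 112.33 FPKM with F-CircAE and 128.99, 127.61 and 114.35 FPKM in wild type. All F-CircAE libraries lay below all wild type libraries at 4.69% of tested genes, and above them at 6.81%. Pcolce differed by -0.18 on the log2 scale (95% interval -0.36 to -0.01, limma adjusted p = 0.842).

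None of the enzymes that build the glycosaminoglycan chains passed the test. Of 7 linker enzymes 6 were tested, with a median log2 fold change of -0.01. B3gat3 had 24.6 ± 0.385 FPKM with F-CircAE and 24.5 ± 0.79 FPKM in wild type, and Xylt2, which starts the chain on the core protein, had 12.4 ± 0.412 FPKM with F-CircAE and 12.4 ± 0.873 FPKM in wild type (SD, n = 3). B4galt7 had F-CircAE libraries at 7.63, 7.64 and 7.36 FPKM, all above the wild type libraries at 7.31, 6.84 and 6.29 FPKM, which was so for 6.81% of tested genes (limma adjusted p = 0.842). Of 16 chondroitin and dermatan sulfate enzymes 12 were tested, 8 with estimates below 0 and 4 above, with a median of -0.06 and a range of -0.11 to 0.14. Chst11, a chondroitin sulfotransferase, stood at 14.81, 14.97 and 14.70 FPKM with F-CircAE and at 19.47, 18.95 and 10.92 FPKM in wild type, so its wild type libraries bracketed the F-CircAE libraries. Dse, the epimerase that makes dermatan sulfate, and Chpf, a chondroitin polymerising factor, had log2 fold changes of 0.06 and -0.11 (limma adjusted p = 0.85 and 0.843).

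For keratan sulfate, 2 of 7 listed enzymes were tested, B4galt1 with a log2 fold change of -0.13 and Chst2 with 0.00 (limma adjusted p = 0.842 and 0.996). All F-CircAE libraries of B4galt1 lay below all wild type libraries, as they did at 4.69% of tested genes. Chst1, a keratan sulfate sulfotransferase, was at 0.286, 0.225 and 0.18 FPKM with F-CircAE and at 0.219, 0.0874 and 0.312 FPKM in wild type. All 6 genes of sulfate supply were tested, with a median of 0.07. Papss1, which makes the sulfate donor, had 42.6 ± 1.57 FPKM with F-CircAE and 39.7 ± 5.28 FPKM in wild type (SD, n = 3), and the transporter Slc35b2 and the phosphatase Impad1 had log2 fold changes of 0.00 and 0.08 (limma adjusted p = 0.999 and 0.85).

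Of 17 receptors and ligands that these proteins bind, 10 were tested and none passed, 7 with estimates below 0 and 3 above, with a median of -0.02. Lrp1, an endocytic receptor of decorin, had 79.4 ± 5.61 FPKM with F-CircAE and 89.9 ± 12.4 FPKM in wild type, and Tlr4, a receptor of soluble biglycan, had 15.3 ± 3.05 FPKM with F-CircAE and 17.3 ± 1.34 FPKM in wild type (SD, n = 3). Ccn4 had 13.95, 13.79 and 14.04 FPKM with F-CircAE and 14.19, 14.18 and 14.23 FPKM in wild type. These did not overlap, as at the 4.69% of tested genes with all F-CircAE libraries below, and differed by -0.03 on the log2 scale (limma adjusted p = 0.922). Met, which encodes the HGF receptor and was named after its values were seen, separated in the other direction, as 6.81% of tested genes did. It had 12.97, 14.14 and 12.58 FPKM with F-CircAE and 11.76, 11.76 and 11.47 FPKM in wild type (log2 fold change 0.17, limma adjusted p = 0.842).

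**Figure D4:**
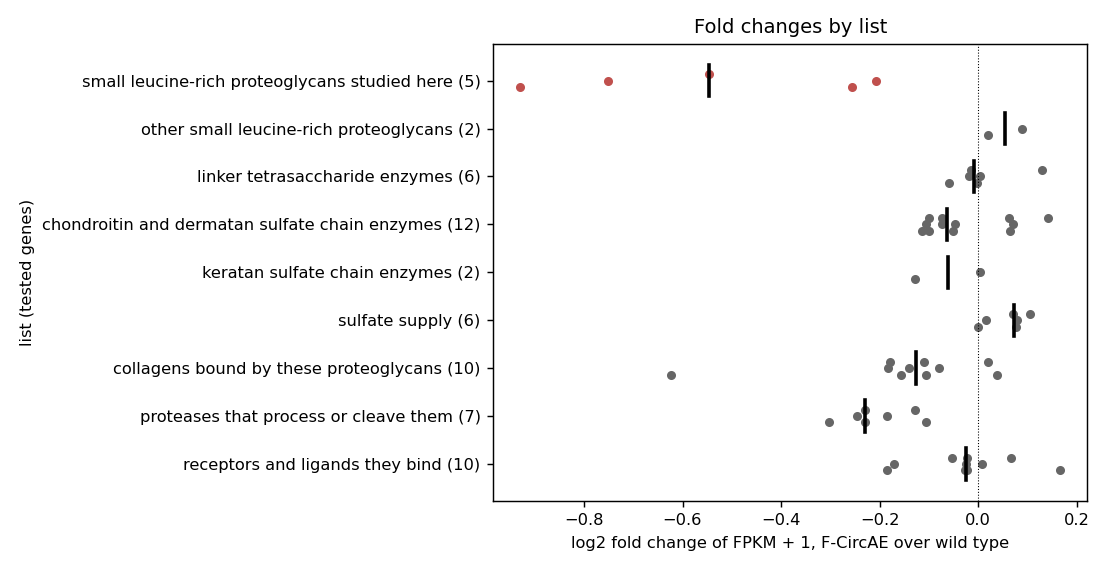
Log2 fold change of FPKM + 1, F-CircAE over wild type, for each tested gene of the proteoglycan list (red) and of 8 related lists (grey), with the number of tested genes in brackets and a black bar at each median. The 5 tested proteoglycans have a median of -0.55, the 7 proteases -0.23 and the 10 collagens -0.13, while the 6 linker enzymes lie around -0.01.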

How the data were processed

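Total RNA of 6 NIH3T3 libraries was sequenced, and groups follow the genotype in the labels. The deposited values are FPKM made by the authors per Ensembl gene, with mm10 as the build per the submitters' processing notes. Aligner, counter, strand setting and annotation release: not given in the sources consulted. Symbols, coordinates and exon lengths came from GENCODE M21 (mm10), and 24816 of 24938 IDs had a symbol.

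FPKM values stepped by whole reads (to 0.01 reads and a relative 1e-08) at the annotated exon length for 19832 genes (79.5%) and at a searched length for 5106, among them Dcn, Ogn, Omd and Aspn, for which whole reads are no independent check.

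Limma 3.58.1 (R 4.3.3), with trend and robust moderation and group as its sole covariate, was fitted to log2(FPKM + 1) of the 12222 genes above 1 FPKM in at least 3 libraries, with Benjamini-Hochberg adjustment at 0.05. Fold changes on that scale are too small for low genes. Voom used genes with at least 10 reads in at least 3 libraries. The fit was tested on simulated data of independent libraries. No near-identical pair was simulated, so that test does not cover the wild type pair seen here. The members, the lists and the rule for named genes (members, the 3 most abundant genes of each list, adjacent genes and the 3 closest profiles) were chosen with earlier results of these data known. Alternatives changed the pseudocount, filter, scaling, moderation, weights, block and libraries, and array weights with the wild type pair averaged were added after seeing the data. Bpnt2 was matched under its older symbol Impad1.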

Additional observations from a re-analysis of the deposited data

How the results depend on the processing

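The estimates of Bgn, Dcn, Prelp, Ogn and Omd stayed below 0 under every alternative that could be fitted, of which there were 19 for each gene and 18 for Omd, which a filter at 5 FPKM removes. Across those 19 the median of the 5 genes ran from -0.79 to -0.35, and from -0.67 to -0.46 when each library was left out in turn. No proteoglycan gene was called in 18 of the 19 alternatives, which were other pseudocounts, filters, scalings, moderation, limma-voom on recovered reads, left-out libraries, the replicate block, and averaging of the wild type pair with or without array weights. Array weights alone called 5 of the 5, along with 2241 of 12222 tested genes (18.3%). In the related lists 11 genes were called, where 2, 6, 12, 2, 6, 10, 7 and 10 genes were tested per list. Beside the share over all tested genes this count is not read as a result about the lists. With array weights the log2 fold changes were -0.79 for Ogn, -1.10 for Dcn, -0.93 for Prelp, -0.35 for Omd and -0.30 for Bgn. Leaving out each library gave 0 to 2 calls over all tested genes, 2 without wild type replicate 3 and 1 without F-CircAE replicate 1, and 0 among the proteoglycans and related lists. At an unadjusted p below 0.05 limma had 632 genes and limma-voom 755 of 14473, also with 0 calls. Estimates of Bgn ranged from -0.38 to -0.07. The cause of these shifts was not tested. Equal FPKM sums moved the median of all tested genes by -0.058 and other scalings by less. Deviations from the group means correlated at -0.102, 0.083 and 0.003 between same-numbered libraries, and at -0.126 to 0.1 between differently numbered ones. With wild type replicates 1 and 2 nearly identical, these values cannot decide whether the numbers are a pairing, which the labels do not say. The replicate block gave 0 calls over all tested genes, 0 among the proteoglycans, 0 in the related lists and a median of -0.55. Depth limits Fmod and Aspn most, at 2 to 17 reads a library.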

Other observations

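The remaining proteoglycans of the wider family were close to the limit of detection and under the filter. Chad, which encodes the cartilage protein chondroadherin, had 4, 11 and 4 reads with F-CircAE and 11, 13 and 6 reads in wild type. Podn, which encodes podocan, had 2, 4 and 2 reads with F-CircAE and 4, 7 and 7 in wild type, and in FPKM its F-CircAE libraries, at 0.0251 to 0.0435, lay below its wild type libraries, at 0.0458 to 0.0856, an order that 5.05% of listed genes showed. Ecm2 had 11, 16 and 14 reads with F-CircAE and 14, 10 and 18 in wild type. Nyx, which encodes nyctalopin of the retina, had 0 to 2 reads with F-CircAE and 1 to 3 in wild type. Counts of this size give no usable fold change for a single library. Krt14, a keratin gene on the list of epithelial markers, showed the reverse order among the wild type libraries, with 5.17, 4.23 and 3.78 FPKM with F-CircAE and 2.70, 2.37 and 6.06 FPKM in wild type.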
